A study of Mus musculus with 17 samples.

Results

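The adipogenic transcription factor genes are 10 mouse genes whose proteins turn on the adipocyte programme: *Pparg*, *Cebpa*, *Cebpb*, *Cebpd*, *Klf15*, *Ebf1*, *Ebf2*, *Zfp423*, *Nr1h3* and *Rxra*. They were chosen by name and found by Ensembl gene identifier, which gave 10 genes of 55401 identifiers in each library. Their RNA was measured by sequencing of perigonadal white adipose tissue (pWAT), the fat pad beside the gonads, from C57BL/6J mice. The groups were 5 WT females, 5 U9-KO females, 3 WT males and 4 U9-KO males. U9-KO mice are homozygous for a germline deletion of all exons of *U90926*, a long noncoding RNA gene, and WT mice were littermates from crosses of heterozygous breeders. All groups received standard chow, the labels give no treatment, and the methods give an age of 16 weeks. The mice came from a phenotyping pipeline whose methods include food withdrawal, a glucose injection and anesthesia for imaging, and which of these each sequenced mouse went through is not given in the sources used here. The deletion is present in every cell, each library holds RNA of a whole piece of fat from 1 mouse, and fewer cells of a type and less RNA per cell cannot be told apart in such samples. The study asked whether loss of *U90926* alters the adipogenic programme in the animal.

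PPARG is a nuclear receptor that drives the expression of most adipocyte genes, and it binds DNA as a partner of RXRA. In the textbook cascade, C/EBP-beta and C/EBP-delta appear first after a hormonal signal and induce *Pparg* and *Cebpa*, whose products then keep each other on. KLF15, EBF1, EBF2 and ZFP423 act around this core, in commitment of precursor cells or in support of *Pparg*, and LXR-alpha, the product of *Nr1h3*, is an oxysterol receptor that raises lipid synthesis genes.

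The sequences before the start sites of 4 members are shown. Of these, *Cebpa*, *Klf15* and *Pparg* rose and fell together from mouse to mouse, as described below. *Cebpb* had r from -0.14 to 0.15 with them over the 17 libraries. Without the female libraries richest in ovary markers, described below, its r was 0.57 with *Cebpa*, 0.48 with *Klf15* and 0.10 with *Pparg*. Each line gives the 250 bases before a RefSeq transcription start (GRCm38.p6), 5′ to 3′ in the direction of the gene, and capitals mark matches on either strand to the motifs searched. Those motifs were the C/EBP palindrome TTGCGCAA, the CCAAT box CCAAT, the E-box CACGTG, the glucocorticoid half-site palindrome ACANNNTGT, the cyclic AMP response element TGACGTCA, the GC box GGGCGG and the TATA box TATAAA.
Cebpa, chr7:35119043-35119292, plus strand: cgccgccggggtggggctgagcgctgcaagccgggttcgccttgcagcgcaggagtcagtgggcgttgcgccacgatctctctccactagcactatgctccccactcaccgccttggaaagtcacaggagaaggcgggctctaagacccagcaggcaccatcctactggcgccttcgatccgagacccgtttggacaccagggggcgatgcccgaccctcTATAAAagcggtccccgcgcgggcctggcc
Klf15, chr6:90462326-90462575, plus strand: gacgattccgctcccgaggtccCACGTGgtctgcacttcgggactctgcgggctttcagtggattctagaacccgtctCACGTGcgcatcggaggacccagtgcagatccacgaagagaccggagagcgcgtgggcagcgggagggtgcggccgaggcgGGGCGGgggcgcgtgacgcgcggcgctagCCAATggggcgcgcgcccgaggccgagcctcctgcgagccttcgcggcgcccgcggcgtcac
Pparg, downstream start, chr6:115421816-115422065, plus strand: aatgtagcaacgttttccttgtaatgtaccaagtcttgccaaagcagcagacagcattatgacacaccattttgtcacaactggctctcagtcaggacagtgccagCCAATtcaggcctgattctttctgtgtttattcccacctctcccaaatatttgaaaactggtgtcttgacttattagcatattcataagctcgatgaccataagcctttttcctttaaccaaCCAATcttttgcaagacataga
Cebpb, chr2:167688665-167688914, plus strand: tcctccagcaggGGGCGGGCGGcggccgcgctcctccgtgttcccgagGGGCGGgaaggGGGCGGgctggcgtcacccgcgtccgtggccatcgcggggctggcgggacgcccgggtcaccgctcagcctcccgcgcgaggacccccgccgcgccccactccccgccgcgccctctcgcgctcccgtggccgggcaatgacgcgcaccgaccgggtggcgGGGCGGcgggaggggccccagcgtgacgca

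The *Cebpa* window held a TATA box that began 30 bases before the start, a motif present in 12.4% of 32817 such windows of the RefSeq table. The *Klf15* window held 2 E-boxes, at 228 and 172 bases before the start, with a CCAAT box and a GC box. An E-box, the motif of clock and MYC-family proteins, was present in 6.02% of all windows. The downstream *Pparg* window, in front of the fat-restricted isoform PPARG2, held 2 CCAAT boxes, a motif of 33.8% of windows, and its GC content was 40%. The upstream *Pparg* windows, whose sequences are not printed, held GC boxes. The upstream window at 115362099 to 115362348 also held a CCAAT box and a TATA box that began 29 bases before the start. The *Cebpb* window held 5 GC boxes, of which the first 2 overlapped, with a GC content of 81%, and 32.7% of all windows held at least 1 GC box. A window of *Rxra*, which moved with *Cebpa*, *Klf15* and *Pparg* (r from 0.77 to 0.87), also held GC boxes, with a GC content of 81%. Its sequence is not printed, and whether the motifs bear on these correlations was not tested. The C/EBP palindrome, in 0.165% of windows, the cyclic AMP response element, in 1.55%, and the glucocorticoid palindrome, in 5.84%, had no match in any of the 14 windows of 8 members, with no entry for *Ebf2* and *Cebpd*. A match describes the letters and not a bound site. Gene-level counts do not separate transcripts from the upstream and the downstream starts of *Pparg*.

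The libraries held 20243688 to 28620744 normalized counts. *U90926* itself was listed at 1 in WT female 3 and WT male 2 and at 0 in the other 15 libraries, so it hardly checks the genotype labels. All 10 adipocyte markers were above 0 in both sexes, while the 7 epididymis markers summed to 0 to 5 in males. In females, the sum of 14 ovary markers was 127334 in WT female 4 and 141111 in U9-KO female 1, against 4628 to 38350 in the other 8 females. These libraries had the lowest sums of the 10 adipocyte markers, 251859 and 250225, against 393913 to 630759 in the other 8, and the fold changes, spreads and correlations in females are given with and without them. The other 8 females were not free of reproductive tract RNA. The oviduct marker sum was 10764 in WT female 3 and 4623 in U9-KO female 4, against 1489 to 2777 in the remaining females. Both stayed among these 8, and the part of oviduct RNA in the member values was not tested.

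*Cebpa* was the most abundant of the 10 genes for its exon length, and *Ebf2* or *Cebpd* the least. Levels between genes are compared only as normalized counts per kb of exon. Some exon bases are shared with other genes: 562 bp in *Cebpd*, 424 bp in *Ebf2*, 312 bp in *Cebpb*, 51 bp in *Cebpa* and 34 bp in *Nr1h3*. The effect of these overlaps on the levels was not tested. In females *Cebpa* had 5627 ± 1686 per kb (SD, n = 10) and in males 10069 ± 1254 (SD, n = 7), above *Pparg* in every library, with 1100 ± 446 (SD, n = 10) and 2132 ± 129 (SD, n = 7). In females *Cebpa* stood above 99.6% and *Pparg* above 97.4% of the 33406 genes with any value above 0, and in males above 99.8% and 98.7% of 30182. In females *Cebpb* (730 ± 206), *Rxra* (673 ± 155) and *Nr1h3* (614 ± 128) followed with ranges that overlapped (SD, n = 10). *Cebpb* exceeded *Rxra* in 6 of 10 females, so the order of these neighbours was not separated from the spread between mice. With the 2 ovary-rich libraries left out, *Rxra* (722 ± 130) came before *Cebpb* (685 ± 196) and *Nr1h3* (666 ± 77.3, SD, n = 8). In males *Rxra* (1093 ± 98.3) and *Nr1h3* (967 ± 149, SD, n = 7) followed *Pparg*, and *Cebpb* stood sixth with 592 ± 112, behind *Klf15* with 625 ± 92 but higher than it in 2 of 7 males. *Ebf1* came seventh in both sexes (248 ± 54.7 in females, 450 ± 74.5 in males). *Zfp423* and *Cebpd* had 145 ± 33.9 and 152 ± 40.6 per kb in females, where *Cebpd* was the higher in 4 of 10 libraries, so that neither stood above the other. *Ebf2* was last in females, with 57.9 ± 13.5 and no overlap with the genes above it, and next to last in males with 173 ± 11.8, where *Cebpd* had 140 ± 26.7.

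**Figure D1:**
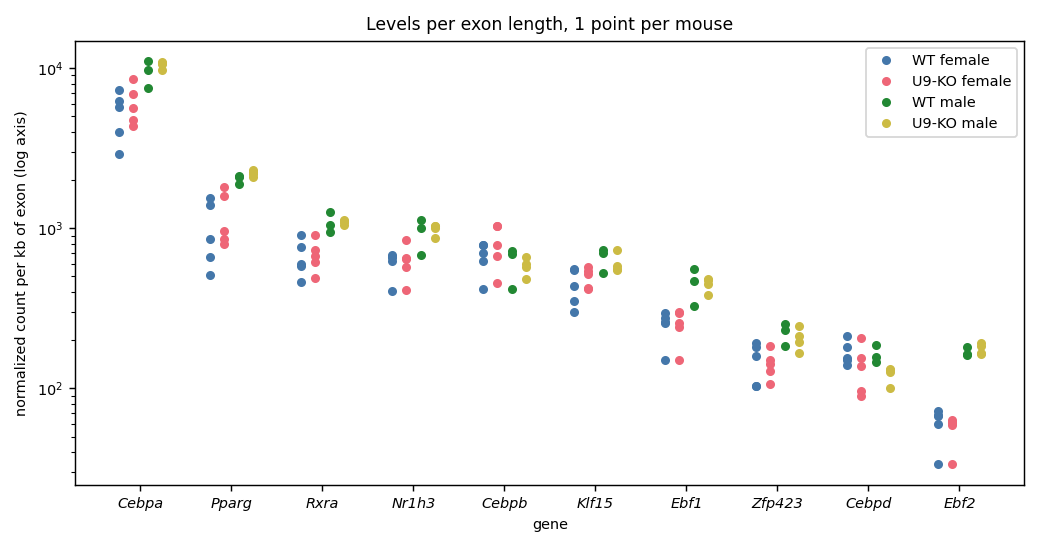
The normalized count per kb of exon (vertical axis, log scale) is plotted for each gene (horizontal axis, ordered by the mean over all 17 libraries), with 1 point per mouse and 1 colour per group. Cebpa lies above every other gene in each library, and Ebf2 lies at 33.5 to 72.6 in females and at 161 to 191 in males.

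None of the 10 genes passed the test between U9-KO and WT mice, in females or in males. With limma's test on log2(normalized count + 1), adjusted by the Benjamini-Hochberg method across every gene in the fit, 0 of 24825 genes were called in females (0%) and 0 of 21930 in males (0%), and the smallest adjusted p among the members was 1 in females and 0.612 in males. At an unadjusted p under 0.05, 0 of the 10 members passed in females, where 2.23% of all genes did, and 1 of 10 in males, where 7.60% did. The groups of a member did not overlap in 1 case, *Cebpd* in males, with U9-KO below WT. Over all genes tested in males, U9-KO lay below WT with no overlap for 3.80% and above WT for 3.80%, and in females for 0.0685% and 0.169%. The median log2 fold change of the 10 members was 0.04 in females and 0.01 in males, beside 0.00 over all genes in both. The difference between the sexes in the genotype effect was called for 0 of 26289 genes (0%), with 3.46% at an unadjusted p under 0.05, none of them a member.

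**Figure D2:**
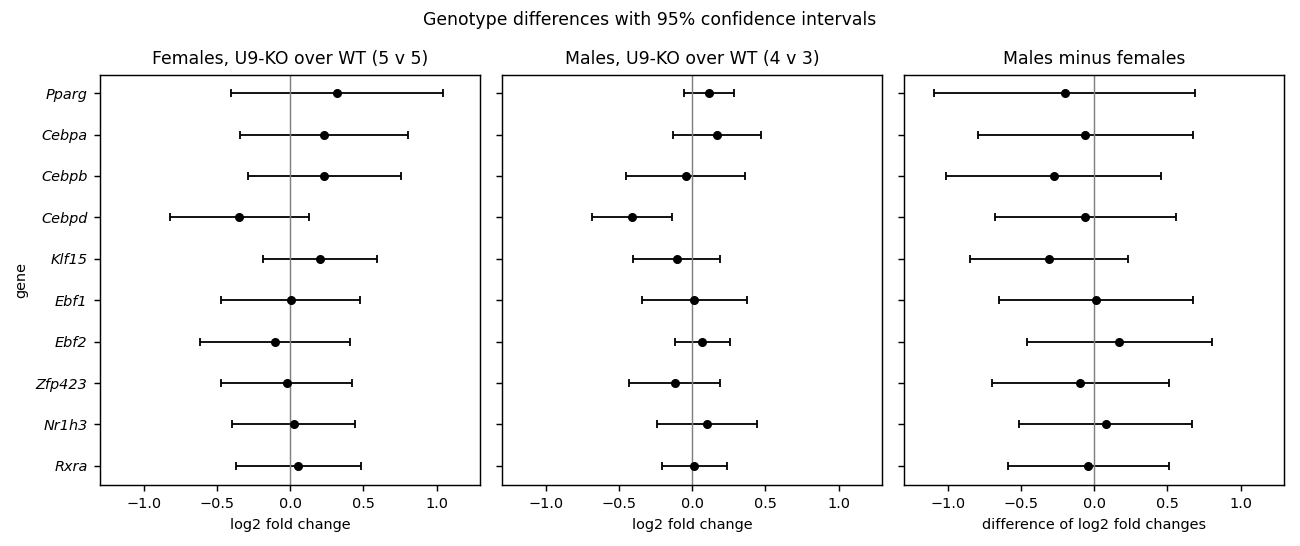
Log2 fold changes of U9-KO over WT from limma (horizontal axis) are shown with 95% confidence intervals for the 10 genes (vertical axis) in females, in males, and as the male minus the female value. In each panel the intervals include 0, except that of Cebpd in males, which runs from -0.69 to -0.14.

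*Pparg* (ENSMUSG00000000440, GRCm38 chromosome 6, 115360951 to 115490399) encodes the receptor at the centre of the cascade. The WT females had 4110, 4576, 2541, 1515 and 1959 normalized counts and the U9-KO females 2527, 4690, 5352, 2362 and 2848. The groups overlapped over most of their range, and the lowest value belonged to WT female 4. The log2 fold change was 0.32 (SE 0.33, 95% confidence interval -0.41 to 1.04, limma adjusted p = 1), and 0.21 (SE 0.33) without the 2 ovary-rich libraries. In males, WT mice had 6214, 5590 and 6246 and U9-KO mice 6194, 6593, 6447 and 6792. Only U9-KO male 1 lay within the WT range, and the log2 fold change was 0.11 (SE 0.08, 95% confidence interval -0.06 to 0.29, limma adjusted p = 0.727).

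*Rxra* (chromosome 2, 27676440 to 27762957), the partner of PPARG on DNA, ranged from 2524 to 4976 in WT and from 2670 to 4946 in U9-KO females. In males the ranges were 5198 to 6962 and 5742 to 6135, so the U9-KO males lay within the range of the WT males. Its log2 fold changes of 0.06 (95% confidence interval -0.38 to 0.49) and 0.01 (-0.21 to 0.24) had limma adjusted p-values of 1 and 0.981, and the female value was 0.05 (SE 0.17) without the 2 ovary-rich libraries.

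*Cebpa* (ENSMUSG00000034957, chromosome 7, 35119293 to 35121928) encodes C/EBP-alpha, which acts with PPARG in mature adipocytes. It had 19317, 16535, 10467, 7706 and 15023 normalized counts in WT females and 11518, 18105, 22424, 12478 and 14752 in U9-KO females. The log2 fold change was 0.23 (SE 0.26, limma adjusted p = 1), 0.14 (SE 0.23) without the 2 ovary-rich libraries and 0.04 (SE 0.23) without WT female 4 alone. WT males had 29309, 19868 and 25661, and U9-KO males 27913, 25588, 28382 and 29065. WT male 2 was the lowest of the 7, and without it the log2 fold change went from 0.17 (SE 0.14, limma adjusted p = 0.761) to 0.02.

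*Cebpb* (chromosome 2, 167688915 to 167690418) encodes an early factor of the cascade, also induced by stress and inflammatory signals. Its WT females had 1054, 941, 628, 1189 and 1186 normalized counts and its U9-KO females 1550, 689, 1558, 1010 and 1174. The 2 highest values were U9-KO females, yet another U9-KO female was near the lowest, and the log2 fold change was 0.23 (SE 0.24, limma adjusted p = 1), or 0.20 (SE 0.26) without the 2 ovary-rich libraries. In males the WT values were 1092, 627 and 1036 and the U9-KO values 728, 993, 902 and 856, a log2 fold change of -0.05 (SE 0.18, limma adjusted p = 0.959), and all U9-KO males lay within the WT range. An exon stretch of 312 bp is shared with *Tmem189* on the other strand.

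*Cebpd* (ENSMUSG00000071637, chromosome 16, 15887286 to 15891031) encodes the other early factor, which is also expressed in myeloid cells and answers to glucocorticoids. WT males had 552, 697 and 589 normalized counts and U9-KO males 491, 499, 477 and 378. Every U9-KO male lay below every WT male, with means of 613 ± 75.3 (SD, n = 3) and 461 ± 56.2 (SD, n = 4). The log2 fold change was -0.41 (SE 0.12, 95% confidence interval -0.69 to -0.14), with an unadjusted limma p of 0.00759 and an adjusted p of 0.612, at rank 239 of 21930 genes. This difference did not pass the test, and leaving out each of the 7 males in turn moved it from -0.48 to -0.31, with limma adjusted p-values from 0.139 to 0.855.

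In females *Cebpd* had 562, 524, 798, 580 and 682 in WT and 362, 334, 577, 769 and 514 in U9-KO mice. The U9-KO values were lower on average but overlapped the WT values, and the log2 fold change was -0.35 (SE 0.22, limma adjusted p = 1), or -0.27 (SE 0.24) without the 2 ovary-rich libraries. The genotype effect of *Cebpd* differed between the sexes by -0.06 (SE 0.29, 95% confidence interval -0.68 to 0.56). In the males the sum of the 8 macrophage markers was lower beside it, at 28559 to 46326 in WT and 21361 to 28076 in U9-KO mice, with no overlap. The exact permutation p of that sum was 0.0571, the smallest that 3 against 4 mice allow, with an adjusted p of 0.524 over 22 marker sums. The sum of the 8 B and T cell markers, 513 to 887 in WT and 337 to 456 in U9-KO males, did not overlap either (exact permutation p = 0.0571). All 8 genes of each list were above 0, and the part of these cells in the *Cebpd* values was not tested. *Cebpd* shares 562 bp of exon with *Spidr* on the other strand, and whether the counting used strand is not given in the sources used here.

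*Klf15* (ENSMUSG00000030087, chromosome 6, 90462576 to 90475238) encodes a zinc finger factor that glucocorticoids induce and that supports *Pparg* and amino acid breakdown. WT females had 1556, 1540, 981, 835 and 1209 normalized counts and U9-KO females 1186, 1512, 1605, 1160 and 1442. WT males had 2037, 1476 and 1950 and U9-KO males 1618, 1548, 1525 and 2049. The log2 fold changes were 0.20 (SE 0.18, limma adjusted p = 1) in females and -0.11 (SE 0.14, limma adjusted p = 0.85) in males, with overlapping groups in both, and the female value was 0.13 (SE 0.17) without the 2 ovary-rich libraries. The difference between the sexes, -0.31 (SE 0.26, limma adjusted p = 1), was the largest of the 10 members and did not pass the test.

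*Ebf1* (chromosome 11, 44617317 to 45008091) encodes a factor of fat precursors and adipocytes that B cells also need. It had 2532, 2512, 2867, 1474 and 2683 normalized counts in WT females and 1465, 2868, 2365, 2927 and 2501 in U9-KO females. In each group 1 library, the ovary-rich one, stood at about the same low level, and the other 8 females lay between 2365 and 2927. In males it had 3199, 5461 and 4580 in WT and 3752, 4378, 4622 and 4716 in U9-KO mice, with the highest and the lowest value both in WT. The log2 fold changes were 0.00 (SE 0.22, limma adjusted p = 1) and 0.01 (SE 0.16, limma adjusted p = 0.989). The female value was 0.005 and its SE 0.10 without the 2 ovary-rich libraries. The B and T cell marker sums, 496 to 1677 in females against 337 to 887 in males, stand beside it, and their part in *Ebf1* was not tested.

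*Ebf2* (chromosome 14, 67233292 to 67430918) encodes a related factor that marks precursors and opens brown fat genes. Females had 503, 412, 471, 233 and 468 normalized counts in WT and 232, 437, 424, 421 and 411 in U9-KO mice, again with the ovary-rich library of each group far below the rest. Males had 1113, 1131 and 1251 in WT and 1135, 1159, 1272 and 1320 in U9-KO mice, with an SD of 0.10 on the log2 scale, where only *Pparg* among the 10 genes had a smaller one. The log2 fold changes were -0.10 (SE 0.23, limma adjusted p = 1) and 0.07 (SE 0.08, limma adjusted p = 0.85). Without the 2 ovary-rich libraries the female value was -0.13 with an SE of 0.09.

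*Zfp423* (chromosome 8, 87661810 to 87959595) encodes a commitment factor of white fat precursors. It ranged from 581 to 1070 in WT and from 600 to 1031 in U9-KO females, and the males from 1039 to 1417 in WT and 934 to 1378 in U9-KO. The groups overlapped over most of their range in both sexes. The log2 fold changes, -0.03 (95% confidence interval -0.47 to 0.42) and -0.12 (-0.44 to 0.19), had limma adjusted p-values of 1 and 0.839, and the female value was -0.11 (SE 0.22) without the 2 ovary-rich libraries.

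*Nr1h3* (chromosome 2, 91184061 to 91202834) encodes LXR-alpha. WT females had 1704, 1659, 1578, 1020 and 1672 normalized counts and U9-KO females 1036, 1633, 2109, 1431 and 1610. WT males had 2851, 1710 and 2528 and U9-KO males 2610, 2619, 2190 and 2513. WT female 4, U9-KO female 1 and WT male 2 were the lowest of their groups, and each also had the lowest adipocyte marker sum of its group. The log2 fold changes were 0.02 (SE 0.19, limma adjusted p = 1) and 0.10 (SE 0.15, limma adjusted p = 0.879), and the female value stayed at 0.02 (SE 0.12) without the 2 ovary-rich libraries.

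**Figure D3:**
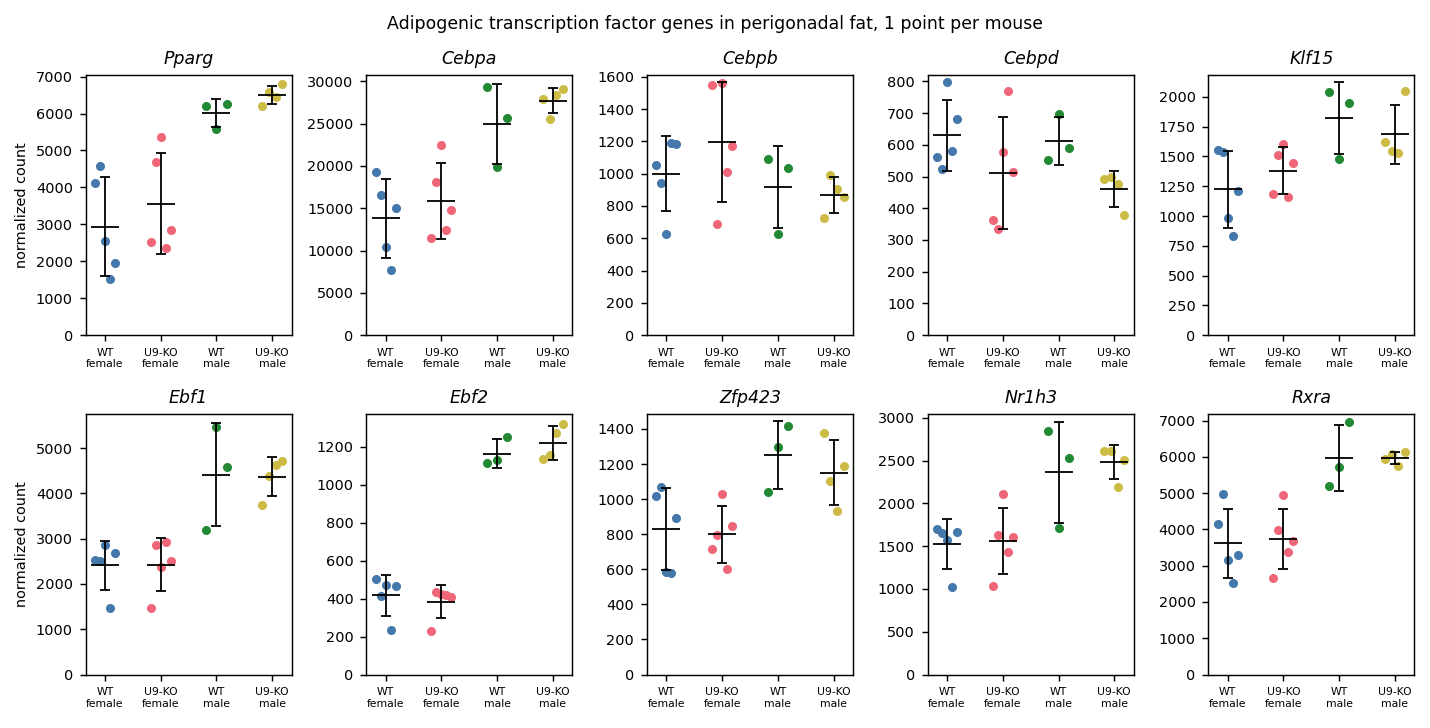
Normalized counts (vertical axes, from 0) of the 10 genes are plotted by group, with 1 point per mouse and the mean with its SD as a black bar. WT and U9-KO points overlap in every panel except Cebpd in males, where WT lies at 552 to 697 and U9-KO at 378 to 499.

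The intervals show what sizes these mice could not distinguish. In males the 95% confidence interval of *Pparg* ended at a 1.22-fold increase and a 0.961-fold level, and that of *Cebpd* at 0.622-fold and 0.91-fold. In females the interval of *Pparg* reached from 0.755-fold to 2.06-fold and that of *Cebpa* from 0.79-fold to 1.74-fold.

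Over all 10 females, each of the 10 genes varied more than the median gene, whose SD was 0.21 on the log2 scale, but for 3 of them this rested on the 2 ovary-rich libraries. Without these the SD of *Ebf1* went from 0.37 to 0.11, that of *Ebf2* from 0.40 to 0.11 and that of *Nr1h3* from 0.33 to 0.16, below the median of 0.19, while the other 7 stayed above it. The highest female value of *Pparg* was 3.53 times the lowest, and its SD over the 10 females, 0.60 on that scale, exceeded that of 93.2% of 12289 genes averaging 100 or more. In males the same gene varied 1.22-fold, with an SD of 0.09 that only 16.5% of genes undercut. For *Cebpa* the ratio of highest to lowest was 2.91 in females and 1.48 in males, and for *Cebpb* 2.48 and 1.74. The SD of *Pparg* was 0.54 and that of *Cebpa* 0.35 over those 8 females, above 92.8% and 82.5% of genes.

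In females, 3 of the 10 genes followed the level of adipocyte markers in the same library. This relation was not computed over all genes, so the count has no background share beside it. The same holds for the relations in males and to the progenitor markers below, and none of these counts is read as particular to the members. The marker list holds known targets of the members, such as *Adipoq* and *Cfd*. *Cfd* weighed most in the sum, with 110741 to 337997 normalized counts in females, beside sums of 250225 to 630759. Across the 10 females, *Nr1h3* correlated with the summed adipocyte markers with Pearson's r = 0.98 (permutation p = 0.00019, adjusted p = 0.0066 over 40 relations) and Spearman's rho = 0.89 (permutation p = 0.00114, adjusted p = 0.0456). *Cebpa* had r = 0.85 (permutation p = 0.00108, adjusted p = 0.0144) and rho = 0.87 (permutation p = 0.00234, adjusted p = 0.0468). *Rxra* had r = 0.83 (permutation p = 0.00375, adjusted p = 0.0333), with a rho of 0.66 that did not pass after adjustment (permutation p = 0.0443, adjusted p = 0.18). Leaving out the 2 libraries farthest from the median marker level gave r = 0.96 for *Nr1h3*, 0.89 for *Cebpa* and 0.71 for *Rxra*, and none then passed after adjustment (adjusted permutation p = 0.0727, 0.0632 and 0.184). Without the 2 ovary-rich libraries the values were 0.91, 0.82 and 0.58, with adjusted permutation p-values of 0.0371, 0.0371 and 0.169. With the genotype means removed they were 0.98, 0.86 and 0.83.

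*Pparg* (r = 0.68, permutation p = 0.0278), *Klf15* (r = 0.71, permutation p = 0.0192) and *Zfp423* (r = 0.63, permutation p = 0.0539) followed the adipocyte markers less closely, with adjusted p-values from 0.0747 to 0.127. The r of *Ebf1* and *Ebf2* in females, 0.78 and 0.86, rested on the 2 ovary-rich libraries, without which it was -0.62 and 0.01. *Cebpb* and *Cebpd*, the early factors, had r = -0.12 and 0.23 (permutation p = 0.762 and 0.522). In the 7 males, 0 of 10 relations to the adipocyte markers passed after adjustment. The highest were those of *Cebpb* (r = 0.87, exact permutation p = 0.00794, adjusted p = 0.0529) and *Nr1h3* (r = 0.86, exact permutation p = 0.0224, adjusted p = 0.0747), and without the 2 farthest males they were 0.65 and 0.75. With the genotype means removed, r was 0.87 and 0.92 (adjusted permutation p = 0.0421 and 0.0159). That permutation shuffled the residuals across WT and U9-KO mice, so these p-values may be too small and are not read as a pass. The adipocyte markers did not differ between genotypes beyond their spread, with 251859 to 480081 in WT and 250225 to 630759 in U9-KO females (exact permutation p = 0.802) and 511098 to 753320 and 626446 to 641979 in males (exact permutation p = 0.971).

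**Figure D4:**
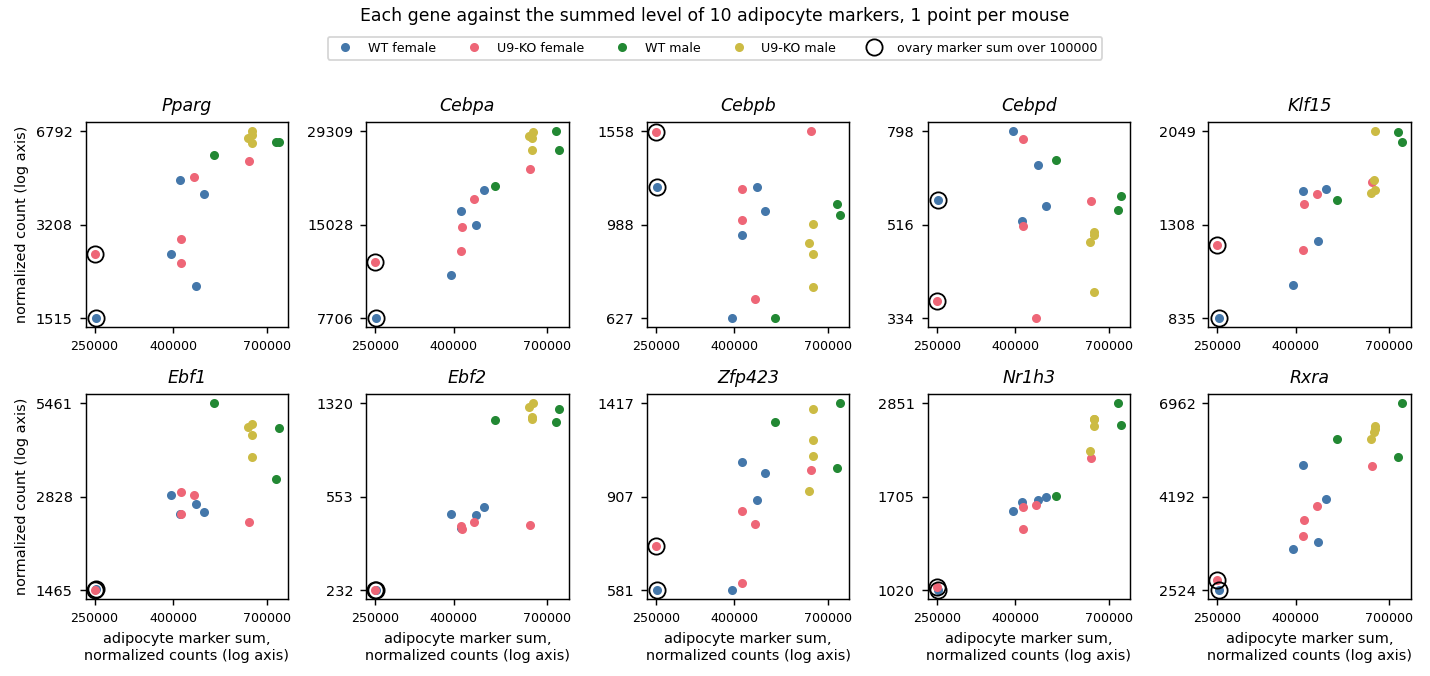
Each panel plots the normalized count of 1 gene (vertical axis, log scale) against the summed normalized count of 10 adipocyte markers (horizontal axis, log scale), with 1 point per mouse and black rings around the 2 ovary-rich female libraries. Nr1h3 and Cebpa rise along the axis in females, while the 8 females without a ring stay within 2365 to 2927 for Ebf1 and 411 to 503 for Ebf2.

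The markers of adipocyte progenitors gave another pattern. *Dcn* weighed most in their sum, with 23378 to 46729 normalized counts in females, beside sums of 49896 to 92895. The part of *Dcn* in the correlations was not tested. *Ebf1* followed the progenitor marker sum across the 10 females (r = 0.88, permutation p = 0.00033, adjusted p = 0.0066, and rho = 0.73, permutation p = 0.0202, adjusted p = 0.18). Its r was 0.75 without the 2 libraries farthest from the median, which here were the 2 ovary-rich ones, and no longer passed (adjusted permutation p = 0.12). Among the 8 other females, a choice made after the values were seen, *Nr1h3* (r = -0.88), *Cebpa* (r = -0.88) and *Rxra* (r = -0.83) fell as the progenitor markers rose, each with an adjusted permutation p of 0.0371, while over all 10 females they had r from 0.19 to 0.48. In males *Cebpa* had r = -0.94 with the progenitor markers (exact permutation p = 0.00417, adjusted p = 0.0333) and rho = -0.79 (exact permutation p = 0.048, adjusted p = 0.18), and -0.76 without the 2 farthest males (adjusted permutation p = 0.333). *Cebpd* moved the other way in males, with r = 0.89 (exact permutation p = 0.0159, adjusted p = 0.0705), and 0.31 without the 2 farthest. The progenitor sum was 63107 to 95968 in WT and 53499 to 69707 in U9-KO males (exact permutation p = 0.229). Its highest value, in WT male 2, held 35665 counts of *Fn1*, against 7737 to 16659 in the other males. The same mouse had the lowest *Cebpa* and the highest *Cebpd* of the males. The part of *Fn1* in these correlations was not tested.

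Among themselves the 10 genes fell into a group that moved together and a few that did not, after the mean of each sex and genotype group was subtracted. Over 17 libraries, *Cebpa* and *Klf15*, whose start regions are printed above, had Pearson's r = 0.91, *Pparg* and *Rxra* 0.87, and *Cebpa* and *Pparg* 0.83. *Ebf1* and *Ebf2* had 0.86, which dropped to 0.37 without the 2 ovary-rich libraries, while the other 3 pairs kept 0.86, 0.83 and 0.73 over 15 libraries. Over these 15 libraries *Ebf1* had r from -0.80 with *Nr1h3*, where it was 0.38 over 17, to 0.37 with *Ebf2*. Its r was -0.58 with *Cebpa* and -0.50 with *Klf15*, against 0.34 and 0.25 over 17 libraries. *Cebpb* had r from -0.14 to 0.15 with 7 of the other members over 17 libraries, *Ebf1* (-0.60) and *Ebf2* (-0.37) being the exceptions. Over the 15 libraries that were not ovary-rich it rose with *Nr1h3* (0.63), *Cebpa* (0.57) and *Klf15* (0.48) and stayed opposed to *Ebf1* (-0.54). *Cebpd* had r from -0.39 with *Klf15* to 0.39 with *Ebf1* over 17 libraries. Without the 2 ovary-rich libraries *Cebpd* was opposed to *Klf15* (r = -0.74) and *Pparg* (r = -0.62). These values are descriptions over libraries that share tissue composition.

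**Figure D5:**
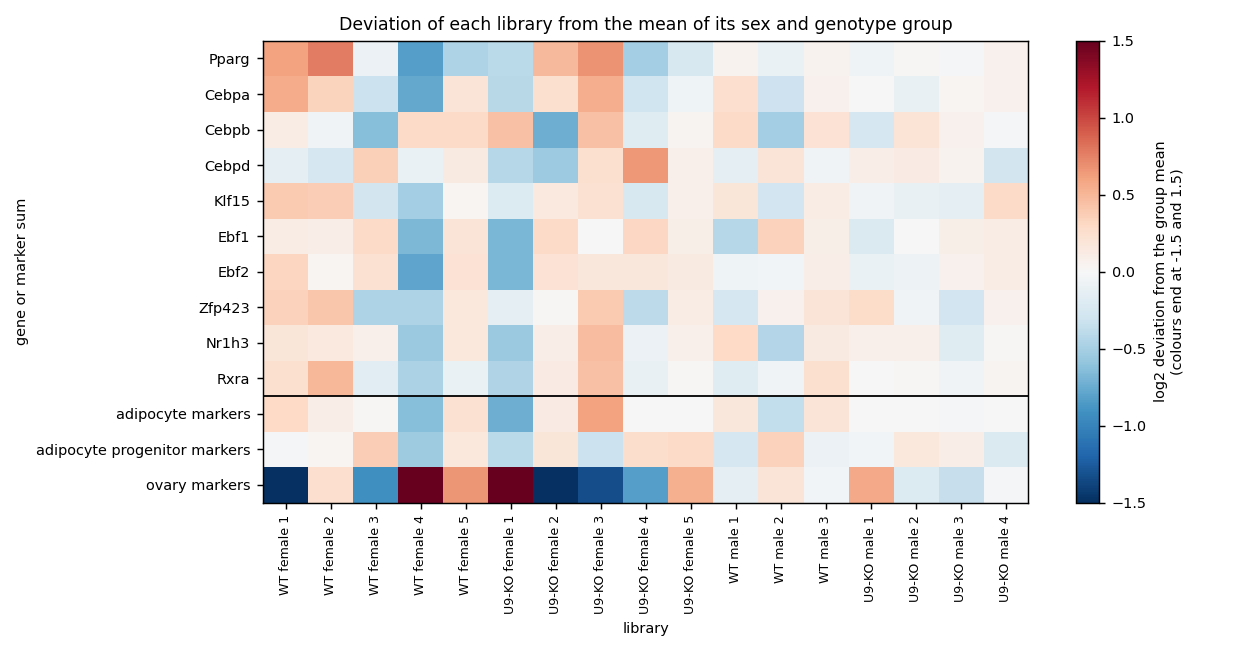
Colours show the log2 deviation of each library (horizontal axis) from the mean of its sex and genotype group for the 10 genes and, below the line, for 3 marker sums (vertical axis). WT female 4 and U9-KO female 1 lie below their group means for Pparg, Cebpa, Klf15, Ebf1, Ebf2, Zfp423, Nr1h3 and Rxra and above them for the ovary markers. U9-KO female 4, which is not ovary-rich, is lower than U9-KO female 1 for Pparg, Klf15 and Zfp423. The male columns are paler than the female ones.

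The genes most like each member were sought among 12288 others averaging 100 or more, by Pearson's r over the 17 libraries with group means subtracted. *Pparg* was closest to *Afap1* (0.95), *Ebf3* (0.95) and *Ino80c* (0.94), and *Ebf3*, a paralog of *Ebf1*, kept 0.95 without the 2 ovary-rich libraries. *Cebpa* was closest to *Abhd15* (0.97), *Mknk2* (0.97) and *Hsd17b4* (0.97), and *Klf15* to *Trpv1* (0.95), *Elmo3* (0.94) and *Mcur1* (0.93). *Nr1h3* was closest to *Hoxc8* (0.96), *Abhd16a* (0.95) and *Eif4ebp1* (0.94), and *Rxra* to *Smpd1* (0.95), *Prkd1* (0.94) and *Hacd2* (0.93). *Zfp423* was closest to *Hspa12a* (0.93), *Mif4gd* (0.92) and *Fbxo22* (0.92). *Cebpb* was closest to *Prkcsh* (0.92), *Dot1l* (0.92) and *Arf5* (0.91), and *Cebpd* to *Ifitm3* (0.88), *Cacfd1* (0.87) and *S100a6* (0.86). For *Ebf1* the 3 were *Arrb1* (0.94), *Pdzd2* (0.94) and *Tpcn1* (0.94). For *Ebf2* they were *Prnp* (0.94), *Grina* (0.94) and *Esyt1* (0.94), which dropped to 0.36, 0.21 and 0.42 without the 2 ovary-rich libraries. For the other 9 members r without these libraries stayed between 0.78 (*Tpcn1*) and 0.96 (*Hsd17b4*), but the order changed: *Abhd15* went from first to 47th for *Cebpa*, *Hoxc8* from first to 16th for *Nr1h3* and *Smpd1* from first to 9th for *Rxra*, while *Ebf3* stayed 2nd for *Pparg*. The names of the nearest genes therefore depend on these 2 libraries.

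Side by side, 8 of the 10 genes had a higher mean in WT males than in WT females, beside 42.4% of 11529 genes. No test was made across the sexes, since the values appear to have been scaled in each sex apart, and sex and that scaling cannot be told apart. The median ratio of WT males to WT females over 11529 genes averaging 100 or more in both was 0.957. The ratio was 2.79 for *Ebf2*, 2.05 for *Pparg*, 1.83 for *Ebf1*, 1.81 for *Cebpa*, 1.65 for *Rxra*, 1.55 for *Nr1h3*, 1.51 for *Zfp423* and 1.49 for *Klf15*. For *Pparg*, *Ebf1*, *Ebf2* and *Rxra*, every male library lay above every female library, beside 4.60% of those genes, and for *Ebf2* the gap ran from 503 to 1113. The early factors had ratios near the median, 0.919 for *Cebpb* and 0.974 for *Cebpd*. The adipocyte marker sums were also higher in WT males, 511098 to 753320 against 251859 to 480081. Per 1000 counts of these markers, *Rxra* had 9.16 in WT males and 9.15 in WT females, *Nr1h3* 3.52 and 3.85, *Klf15* 2.74 and 3.08, and *Zfp423* 1.94 and 2.08. *Ebf2* remained higher on that scale, at 1.51 to 2.21 in WT males and 0.925 to 1.20 in WT females, while *Pparg* (9.21 ± 1.49, SD, n = 3, and 7.25 ± 2.57, SD, n = 5), *Cebpa* (37.5 ± 3.03 and 34.0 ± 5.89) and *Ebf1* (7.03 ± 3.28 and 6.06 ± 0.739) overlapped. *Cebpb* was lower in WT males on that scale with no overlap, at 1.23 to 1.48 against 1.59 to 4.72 in WT females. *Cebpd* had 0.747 to 1.36 in WT males and 1.17 to 2.3 in WT females, which overlapped.

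The lists of related genes were chosen with earlier results of these data known, and none held a gene past the threshold in either sex. Without WT male 1, 71 genes were called in males, 0 of them members and 5 of them on the lists: *Tle3*, *Per3* and *Zbtb16* lower, *Gpd1* and *Fasn* higher. The fit of all males tested 21930 genes, and the share called without WT male 1 was not computed. Neither count is therefore read as a result about the members or the lists. The counts of small p-values below stand beside shares over all genes of 2.23% in females and 7.60% in males. The 11 paralogs of the members are led per kb by *Nr1h2*, the gene of LXR-beta, *Cebpg* and *Rxrb*. *Nr1h2* had 1470 to 1680 normalized counts in WT and 1321 to 1429 in U9-KO males, with no overlap and a log2 fold change of -0.21 (SE 0.07, limma adjusted p = 0.612), while in females the groups overlapped (0.01, SE 0.08). At an unadjusted p under 0.05 the list held 2 genes higher and 1 lower in males, 27.3% of it, and 0 in females. Of the 20 other pro-adipogenic transcription factors, 0 in females and 3 in males (15%), each lower, had an unadjusted p under 0.05. *Srebf1*, *Mlxipl* and *Atf4*, which act on lipid synthesis and on the stress response, led the list per kb. *Srebf1* varied from 3242 to 14156 in WT and 5399 to 23376 in U9-KO females, a log2 fold change of 0.58 (SE 0.49, limma adjusted p = 1), and was 0.44 (SE 0.26, limma adjusted p = 0.693) in males. *Mlxipl* had 0.72 (SE 0.50) and 0.21 (SE 0.16), and *Atf4* 0.03 (SE 0.10) and 0.12 (SE 0.10).

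The 18 anti-adipogenic factors and signals, led per kb by *Klf2*, *Irf3* and *Foxo1*, held 0 genes in females and 1 higher gene in males (5.56%) at an unadjusted p under 0.05. *Klf2* had log2 fold changes of -0.03 (SE 0.10) and -0.25 (SE 0.19), *Foxo1* -0.01 (SE 0.13) and -0.11 (SE 0.10), and *Irf3* -0.01 (SE 0.07) and 0.08 (SE 0.12). The 15 cofactors, led by *Nrip1*, *Ncor1* and *Hdac3*, held 0 in females and 1 higher and 1 lower in males (13.3%). *Ncor1*, a corepressor of nuclear receptors, was even across mice (4989 to 6158 in females, 5116 to 6019 in males).

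Of the 26 targets of PPARG, C/EBP-alpha and LXR-alpha, 16 were above 0 in females (median log2 fold change 0.10) and 18 in males (median 0.06), beside medians of 0.00 over all genes. The genes with the highest level per kb were *Cfd*, the adipsin gene, *Scd1*, a fatty acid desaturase, and the adiponectin gene *Adipoq*. *Adipoq* had log2 fold changes of -0.06 (SE 0.29) and 0.08 (SE 0.16) in females and males, *Cfd* 0.23 (SE 0.30) and -0.12 (SE 0.27), and *Scd1* 0.77 (SE 0.69) and -0.13 (SE 0.30), with limma adjusted p-values from 0.91 to 1. At an unadjusted p under 0.05 the list held 0 genes in females and 2 higher and 1 lower in males (11.5%).

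In males the lists of amino acid and glucocorticoid targets and of clock genes held lower genes, as did the cell markers beside them: of the 8 macrophage and the 8 B and T cell markers, 4 each (50%) were lower at an unadjusted p under 0.05. Their part in the lists was not tested. Of 11 amino acid and glucocorticoid targets, 4 were lower at an unadjusted p under 0.05 and 9 had a log2 fold change under 0, with a median of -0.20. The share was 36.4%, and 30.0% (3 of 10) without *Zbtb16*, and 0 passed after adjustment. *Tsc22d3*, the glucocorticoid-induced leucine zipper gene, had 3866 to 4104 normalized counts in WT and 3187 to 3966 in U9-KO males (-0.20, SE 0.09, limma adjusted p = 0.631). *Bcat2*, the branched-chain aminotransferase gene, had 0.17 (SE 0.25) and *Gpt*, an alanine aminotransferase gene, 0.20 (SE 0.18). *Zbtb16*, a glucocorticoid-induced factor chosen after its values were seen, had 2189 to 3950 in WT and 1274 to 1982 in U9-KO males, with no overlap (-0.82, SE 0.20, limma adjusted p = 0.612).

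Of 16 clock genes in males, 2 were higher and 4 lower at an unadjusted p under 0.05, a share of 37.5%. *Tef*, an output gene of the clock, had 3233 to 3666 in WT and 2218 to 2871 in U9-KO males, with no overlap (-0.45, SE 0.10, limma adjusted p = 0.612). *Nr1d1* had -0.35 (SE 0.26) and *Nfil3* 0.73 (SE 0.33), both with overlapping groups. In females neither list held a gene with an unadjusted p under 0.05, and *Tef* had 0.26 (SE 0.20). The time of day at which each mouse was killed was not analysed here.

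For the 12 immediate early genes the median log2 fold change was 0.40 in females, where 2 (16.7%) were higher at an unadjusted p under 0.05, and -0.16 in males, where 0 passed. *Jun*, *Zfp36* and *Egr1* led per kb, and *Egr1* had 417 to 1548 in WT and 1079 to 2252 in U9-KO females (0.73, SE 0.33, limma adjusted p = 1). *Jun* had 0.00 (SE 0.20) and -0.13 (SE 0.23), and *Zfp36* 0.16 (SE 0.11) and -0.19 (SE 0.17). Of 9 brown and beige fat genes, *Ebf2* among them, 1 (11.1%) was higher at an unadjusted p under 0.05 in females and, of the 8 tested, 0 in males. *Cox8b* and *Cox7a1*, subunit genes of cytochrome c oxidase, had 37 to 705 and 25 to 70 normalized counts over all libraries, with log2 fold changes of 0.79 (SE 0.44) and -0.14 (SE 0.28) in females. The 705 of *Cox8b* was U9-KO female 3, and the other U9-KO females had 107 to 242.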

How the data were processed

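RNA of 17 pWAT samples, 1 library per mouse, was sequenced by the authors from stranded mRNA libraries with paired 150-base reads, trimmed, aligned with STAR 2.7.3a to GRCm38 per the submitters' processing notes, and counted per gene in the Union mode of summarizeOverlaps. The deposited value of each gene is a score: a read count divided by a DESeq2 1.28.1 size factor by the authors and rounded to a whole number. It is called a normalized count here. Their scale looks as if females and males had been normalized separately, and the raw counts were not used here. Dividing and rounding blur values near 0, so no count model was fitted.

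Groups followed the labels, and 2 male columns carry other replicate numbers in their headers. Symbols were found for 55141 of 55401 identifiers, and positions and exon lengths came from GENCODE M21. limma 3.58.1 in R 4.3.3 was fitted to log2(normalized count + 1), with the prior variance following the mean, in females, in males and for the interaction, over genes with a total of at least 10, with Benjamini-Hochberg adjustment and a threshold of 0.05. Fold changes on this scale understate those of low genes. The fits were tested on simulated data. Marker sums were compared by two-sided exact permutation tests, and relations to marker sums by two-sided permutation (100000 resamples for 10 females, exact for 7 males) with Python 3.11.15 and scipy 1.17.1.

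The members, lists and tests were chosen with earlier results of these data known. Named were all members, the 3 genes of each list with the highest level per kb and any past the threshold, *U90926*, and the 3 genes most like each member. Alternatives were the pseudocount, the filter, the trend, robust estimation, rescaling, quantile normalization, the replicate block, leaving out each library, and marker sums as covariates. The deposited table of the whole series was not used here.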

Additional observations from a re-analysis of the deposited data

Results flagged for a closer look

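In a group of 4 or 5 mice, a library was marked where its gap to the nearest other exceeded Dixon's 95% critical value, which chance alone does for about 1 in 20 groups, and 42 groups of values were looked at. *Ebf1* was at 1474 in WT female 4, below the 2512 to 2867 of the other WT females. *Nr1h3* was at 1020 in the same library, below 1578 to 1704. *Ebf2* was at 232 in U9-KO female 1, below the 411 to 437 of the other U9-KO females. The ovary marker sums of these libraries were marked as well, at 127334 in WT female 4, against 4628 to 38350 in the other WT females, and at 141111 in U9-KO female 1, against 5411 to 22685. The adipocyte marker sum of U9-KO male 3, 626446, lay below the 640065 to 641979 of the other U9-KO males, a gap that is small beside the WT range of 511098 to 753320. The summed normalized count of U9-KO female 3, 28620744, lay above the 21490907 to 23313183 of the other U9-KO females. The genotype effect of a member passed no test of a difference between the sexes, with limma estimates from -0.31 (*Klf15*) to 0.17 (*Ebf2*) and intervals as wide as -1.10 to 0.69 (*Pparg*).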

How the results depend on the processing

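No member passed the threshold under any setting that was run. Of the members' log2 fold changes, 113 of 120 in females and 95 of 100 in males kept their direction under the settings other than leaving out 1 library, as did 97 of 100 differences between the sexes, with smallest adjusted p-values of 0.925, 0.234 and 0.977. The others changed sign near 0, and the cause was not tested. With quantile normalization *Ebf1* was -0.038 in females and -0.023 in males, and *Rxra* -0.027 in males. With the ovary marker sum as covariate the female values were -0.105 for *Ebf1*, -0.07 for *Nr1h3* and -0.026 for *Rxra*, and with the adipocyte marker sum -0.064, -0.051 and -0.008. With the adipocyte marker sum *Cebpb* was 0.017 and *Ebf1* -0.028 in males, and *Cebpd* in males was -0.44 (limma adjusted p = 0.234). Without the 2 ovary-rich libraries, a choice made after seeing the data, the difference between the sexes was 0.026 for *Cebpa*.

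The labels give WT and U9-KO mice the same replicate numbers, but same-numbered libraries did not deviate together (correlations from -0.456 to 0.242, over 0.1 in 1 of 8 pairs). Libraries of different number reached 0.699 (WT female 3 with U9-KO female 4). The headers of WT male 3 and U9-KO male 4 carry the numbers 4 and 5. These values show no pairing but cannot show that there was none. With the replicate block 0 genes were called in either sex or for the interaction, *Cebpd* in males was -0.32 (limma adjusted p = 0.766), *Ebf1* in males -0.025, and the difference between the sexes 0.032 for *Cebpd* and -0.028 for *Ebf1*.

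Counts of called genes went from 0 to 1 in females and in males without the trend (*Hfm1*, 4930583P06Rik), to 1 for the interaction with no filter (*Lrp8os1*) and to 1 in males with the adipocyte marker sum (*Ighv11-2*). Leaving out 1 library gave 0 calls in females and for the interaction and 0 to 71 in males, where 71 came without WT male 1. That fit called 1 gene each of the other pro-adipogenic factors, the cofactors, the amino acid and glucocorticoid targets and the clock genes and 2 targets of PPARG, C/EBP-alpha and LXR-alpha, and the other 6 fits called 0 of these lists. The share of all tested genes called without WT male 1 was not computed. In females, leaving out 1 library gave -0.166 to 0.174 for *Ebf1*, -0.3 to 0.07 for *Ebf2*, -0.142 to 0.078 for *Zfp423*, -0.117 to 0.161 for *Nr1h3* and -0.064 to 0.18 for *Rxra*. In males it gave -0.299 to 0.101 for *Cebpb*, -0.201 to 0.184 for *Ebf1*, -0.116 to 0.252 for *Nr1h3* and -0.08 to 0.13 for *Rxra*. The difference between the sexes ran from -0.395 to 0.004 for *Pparg*, -0.216 to 0.131 for *Cebpa*, -0.197 to 0.103 for *Cebpd*, -0.204 to 0.182 for *Ebf1*, -0.002 to 0.368 for *Ebf2*, -0.223 to 0.019 for *Zfp423*, -0.139 to 0.23 for *Nr1h3* and -0.167 to 0.078 for *Rxra*. Log2 differences of marker sums ran from -0.066 to 0.276 (adipocyte, females), -0.227 to 0.052 (adipocyte, males), -0.134 to 0.099 (progenitor, females), -0.402 to -0.099 (progenitor, males) and -1.419 to -0.029 (ovary, females).

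Relations to marker sums were less stable. Without the 2 libraries farthest from the median, r with the adipocyte markers became -0.138 for *Cebpd* in females, and in males -0.48 for *Pparg*, 0.551 for *Cebpd*, -0.574 for *Ebf2* and -0.865 for *Rxra*. In females the progenitor values became -0.715 for *Pparg*, -0.879 for *Cebpa*, -0.721 for *Klf15*, -0.881 for *Nr1h3* and -0.826 for *Rxra*, by that setting and without the 2 ovary-rich libraries alike, since these are the same libraries. In males they became 0.597 for *Pparg*, 0.587 for *Cebpb*, 0.634 for *Ebf2*, -0.051 for *Zfp423* and 0.616 for *Rxra*. Without the 2 ovary-rich libraries r with the adipocyte markers became 0.685 for *Cebpb*, -0.178 for *Cebpd* and -0.618 for *Ebf1*. No library exceeded 10 times the median ovary marker sum, so the planned fit without such libraries gave no value.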
